A study of Mus musculus with 4 samples.

Results

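The phase II conjugation enzymes described here are 60 of 18193 genes whose transcripts were measured in jejunal crypt epithelium of mice. They are the genes whose symbol begins with Gsta, Gstk, Gstm, Gsto, Gstp, Gstt, Gstz, Mgst, Ugt, Sult or Ces followed by a digit, chosen by name alone. They comprise 23 glutathione transferases, 11 UDP-glucuronosyltransferases, 13 sulfotransferases and 13 carboxylesterases. On these arrays each transcript is read by a probe set, made of several oligonucleotides, and a gene was represented by its probe set with the highest mean over the 4 arrays. The comparison set 2 knockout arrays against 2 control arrays and addressed how the epithelium differs once it has lost YY1, a zinc finger transcription factor. Knockout mice had both Yy1 alleles floxed and carried Vil-Cre-ERT2, a tamoxifen-dependent Cre under the Villin promoter, which is active throughout the intestinal epithelium and not in crypts alone. Per the labels tamoxifen treatment lasted 4 days, crypts were freed with EDTA through a 70 um filter, and the strain of every mouse was C57BL/6J enriched. The other group is named only as control. Its alleles, whether it carried Cre, and the age of the mice are not stated in the labels, and their treatment wording, the same for all 4 arrays, does not settle whether control mice also received tamoxifen. Effects of Cre, and of tamoxifen if the controls had none, cannot be told apart from those of Yy1 loss.

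Phase II enzymes make lipophilic compounds more water-soluble by joining them to a polar group. Glutathione transferases (GSTs) couple glutathione to electrophiles, UDP-glucuronosyltransferases (UGTs) transfer glucuronic acid from UDP-glucuronic acid, and sulfotransferases (SULTs) transfer sulfate from the donor PAPS. Carboxylesterases hydrolyse esters and amides and are usually counted as phase I enzymes, but they often produce the acids and alcohols that are conjugated next. In the small intestine these enzymes act on food constituents, drugs, bile acids and hormones as they are absorbed, and many of their genes are expressed most strongly in mature enterocytes.

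Values are intensities as deposited, and differences are knockout minus control on log2(intensity + 16) ± the standard error (SE) of a limma fit over all 18193 genes, with 2 arrays per group. Group means are given ± SD. A gene is called lower or higher at a Benjamini-Hochberg adjusted p under 0.05. Replicates are biological per the titles, but nothing says which mice they came from, so p-values measure the spread between these arrays alone. As a background measure, the median of 27 Bacillus control probe sets lay between 31.9 and 35.6 in the 4 arrays. Yy1 itself read 1648 and 1681 in the controls and 69.4 and 68.1 in the knockouts (-4.31 ± 0.09), and each of its other 3 probe sets was also called lower. Different probe sets bind their targets with different strength, so levels of different genes are not set against each other.

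A large share of the families was lower in the knockout. Of the 60 members 28 were called lower and 2 higher, where 10.9% of all 18193 genes were called lower, 13.4% higher and 24.4% in either direction. At least 2-fold falls were called in 18 members, against 2.62% of all genes, and no member was called at least 2-fold higher, against 1.34%. The median log2 difference over the 60 members was -0.31, while that over all genes was 0.01. By family, 12 of 23 GSTs, 5 of 11 UGTs, 4 of 13 SULTs and 7 of 13 carboxylesterases were called lower, and the 2 members called higher were the GST Gstz1 and the sulfotransferase Sult1a1. In 40 members both knockout arrays lay below both control arrays (29.3% of all genes) and in 9 both lay above (32.7% of all genes). Of the 60 members, 53 had a group mean above the background measure, and all 28 called lower were among them. Split at 202, the median gene's mean over all 4 arrays, 21 of 31 members above it and 7 of 29 below it were called lower. The share of all genes called lower was not counted on each side, so this split is not shown to be particular to the families. Because these are bulk preparations, fewer cells of a type and less RNA per cell cannot be told apart in any of the falls below. Leaving out 1 array leaves its group with a lone array, which is then assumed to vary like the other group. With 1 array left out at a time, between 22 and 28 members were called lower and 0 or 1 higher, with the fewest falls without control replicate 1 and 0 rises without knockout replicate 1 or control replicate 2.

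**Figure D1:**
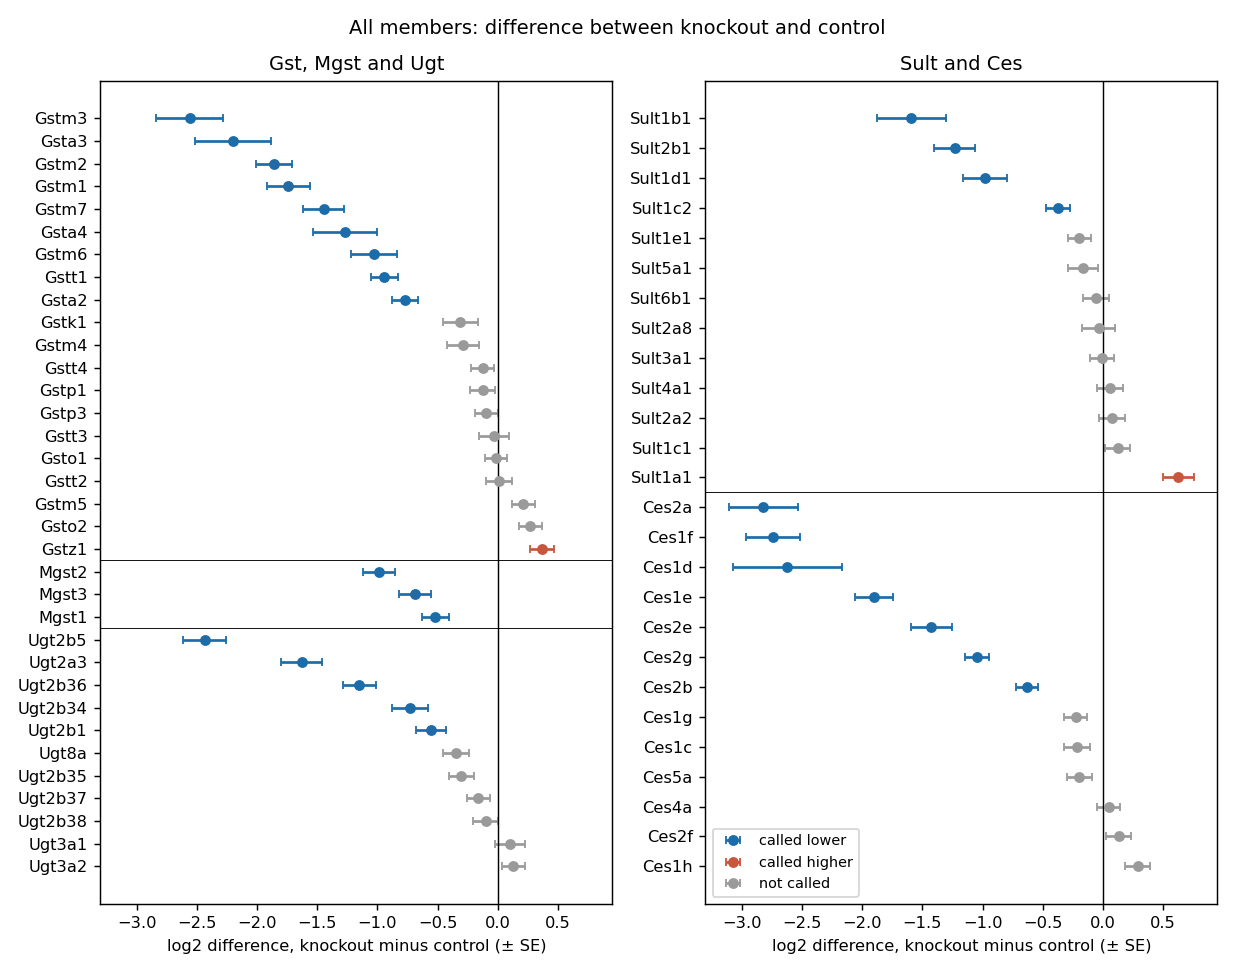
Log2 difference between knockout and control for each of the 60 members (horizontal axis, knockout minus control on log2(intensity + 16)), ordered by family and size, with bars for the SE of the limma fit and n = 2 arrays per group. Fitted differences run from -2.82 for Ces2a to 0.63 for Sult1a1, that of Ugt2b5 (-2.44) is not exact because its knockout arrays are at background and becomes -3.00 with a pseudocount of 1, where Ces2a is -2.86, and only Gstz1 and Sult1a1 are called higher.

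The mu class of GSTs, encoded by the Gstm genes, held 5 of the 12 falls among glutathione transferases, each of them at least 2-fold. Mu class enzymes conjugate aromatic electrophiles and epoxides in the cytosol. Gstm3 read 4030.1 and 3285 in the control arrays and 429 and 842 in the knockout arrays, so its groups lay far apart (-2.56 ± 0.28, adjusted p = 0.00165 by limma). Gstm1 went from 2829 and 2037 to 625 and 799 (-1.74 ± 0.18), and all 4 of its probe sets were called lower, with differences between -1.82 and -1.04. Gstm2 went from 877 and 704 to 182 and 229.9 (-1.86 ± 0.15). For these 3 genes the lowest control array was well above the highest knockout array. Gstm7 went from 375 and 292 to 93.9 and 131 (-1.45 ± 0.17), while a second, dimmer probe set of the gene, at 47.9 to 61.0, gave 0.11 ± 0.11. Gstm6 went from 230.4 and 144 to 78.5 and 84.4 (-1.03 ± 0.19), with the controls further apart than the knockouts. The adjusted p of these 4 genes lay between 0.000718 and 0.00931 by limma. Gstm5 averaged 445 ± 3.61 in the controls, against 519 ± 26.9 in the knockouts (0.21 ± 0.10, adjusted p = 0.171), and Gstm4 at 149 ± 29.5 and 118 ± 0.969 (-0.29 ± 0.14, adjusted p = 0.181), so neither passed the limma threshold. Mu class genes are close relatives, and the probe sets used for Gstm3 (_s_at) and Gstm1 (_x_at) are of types that can bind several transcripts. Without such probe sets the differences were -2.77 for Gstm3 and -1.82 for Gstm1.

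All 3 measured alpha class GSTs, which detoxify lipid peroxidation products and other electrophiles, were lower. Gsta3, also able to isomerise steroid intermediates, read 893 and 422 in control and 141 and 104 in knockout (-2.20 ± 0.31, adjusted p = 0.00368 by limma), and its second probe set fell by 1.05 ± 0.19. Gsta4, which conjugates the lipid aldehyde 4-hydroxynonenal, went from 2642 and 1629 to 681 and 1058 (-1.27 ± 0.27, adjusted p = 0.0140). Gsta2 went from 244 and 205 to 124 and 125 (-0.77 ± 0.11, adjusted p = 0.00391). In all 3 genes control replicate 1 was the highest array, and no knockout array reached a control. For Gsta4 the adjusted p passed 0.05 when control replicate 1 (0.0599) or knockout replicate 1 (0.0672) was left out, and with a trended and robust prior (0.106). A further probe set is annotated to 3 genes of the alpha class at once and therefore to no single gene. It read 8978 and 7384 in control and 4201 and 4969 in knockout, a difference of -0.83 ± 0.14 in a fit over all 45037 probe sets that are no array controls (adjusted p = 0.00663).

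The 3 microsomal GSTs, membrane proteins that act on lipid hydroperoxides and, in the case of Mgst2, on leukotriene synthesis, were all lower by less than 2-fold. Mgst2 went from 4124 and 3899.8 to 1779.7 and 2284 (-0.99 ± 0.14, adjusted p = 0.00324 by limma). Mgst3 went from 2940.0 and 2783 to 1573 and 1991 (-0.69 ± 0.13, adjusted p = 0.0100), and Mgst1 from 3004 and 2560.4 to 1978 and 1888 (-0.52 ± 0.11, adjusted p = 0.0164). Knockout arrays lay below both controls in each. Mgst1 and Mgst3 also have a dim second probe set, between 66.6 and 91.5 for Mgst1 and between 31.9 and 37.4 for Mgst3, with differences of 0.05 ± 0.14 and -0.08 ± 0.10 in the fit over all probe sets. The call of Mgst3 was lost without control replicate 1 (adjusted p = 0.0610), and that of Mgst1 when control replicate 1 (0.109) or knockout replicate 2 (0.0530) was omitted, or when all its probe sets were averaged (0.0957).

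Among the remaining cytosolic and related GSTs, 1 member fell, 1 rose and 8 were not called. Gstt1, a theta class enzyme that conjugates small halogenated compounds, read 514 and 480.3 in control and 231 and 272 in knockout (-0.94 ± 0.11, adjusted p = 0.00213 by limma). The other theta genes stayed between -0.13 and 0.01, Gstt3 for example at 466 ± 22.8 and 458 ± 70.0. Gstz1, which doubles as maleylacetoacetate isomerase of tyrosine breakdown, read 355 and 329 in control and 457 and 434 in knockout (0.37 ± 0.10, adjusted p = 0.0354). That call was lost with any array left out, at adjusted p between 0.0577 and 0.201, and with a pseudocount of 1 (0.0527). Gstp1, the pi class enzyme, read 6037 and 5775 in control arrays, and 5097 and 5745 in knockout arrays (-0.13 ± 0.11, adjusted p = 0.459). Gsto1, an omega class enzyme that reduces dehydroascorbate, overlapped completely, with 3027 and 3139.6 against 3066 and 3039 (-0.01 ± 0.09, adjusted p = 0.939). Gstk1, the kappa class enzyme of mitochondria and peroxisomes, read 1547 and 1405 in control and 1037 and 1355 in knockout (-0.31 ± 0.14, adjusted p = 0.174). It passed the threshold only without knockout replicate 2 (adjusted p = 0.0325). Gstp3 differed by -0.09 ± 0.10, and Gsto2 (17.9 to 26.3) lay below background in all arrays.

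**Figure D2:**
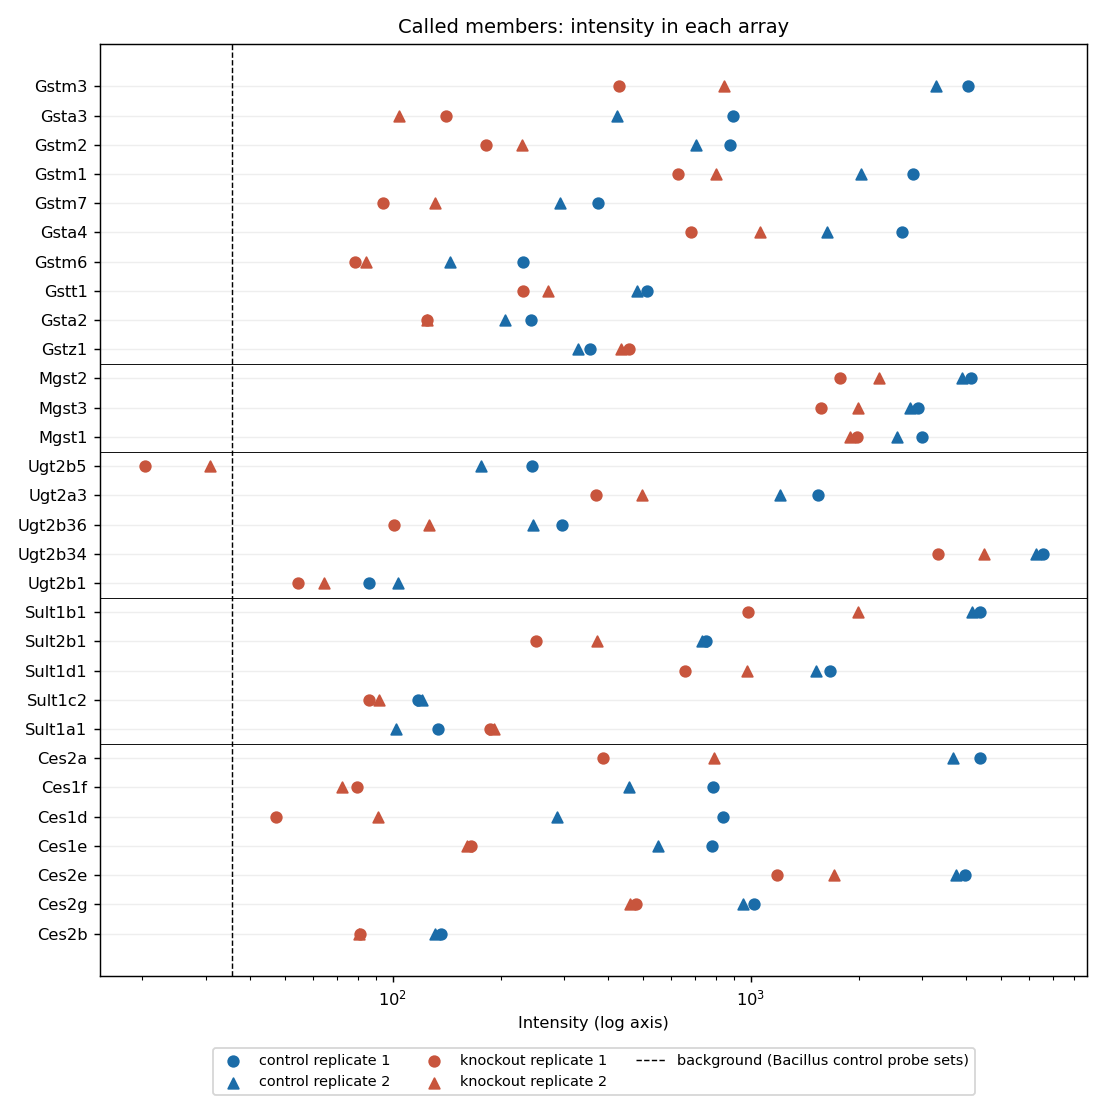
Intensity (horizontal log axis) of the 30 called members in each of the 4 arrays, with circles for replicate 1 and triangles for replicate 2, controls in blue and knockouts in red. The dashed line marks a background of 35.6, and Ugt2b5 is the only one of these genes whose knockout arrays lie under it.

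Of 11 UGT members 5 fell and none rose, all 5 of them in the Ugt2 group, whose enzymes glucuronidate steroids, bile acids, fatty acids and drugs. Ugt2b5 read 245 and 176 in control and 20.3 and 30.9 in knockout. Both knockout values lay at or under background, so the control level was at least 6.42-fold higher, with the knockout set to each array's Bacillus median where it was lower, and the fitted -2.44 ± 0.18 is not exact (adjusted p = 0.000556 by limma). Ugt2a3 went from 1536 and 1207 to 369 and 498 (-1.63 ± 0.17, adjusted p = 0.00146), and Ugt2b36 from 297 and 247 to 101 and 126 (-1.15 ± 0.14, adjusted p = 0.00209). Ugt2b34 went from 6530.2 and 6267 to 3326 and 4468 (-0.73 ± 0.15, adjusted p = 0.0126), with nearly the same difference for its second probe set (-0.76 ± 0.15). Ugt2b1 went from 85.7 and 103 to 54.3 and 64.2 (-0.55 ± 0.12, adjusted p = 0.0175). In each of the 5 genes both knockout arrays lay below both controls. With fewer arrays the smaller falls kept their direction but not always their call. Ugt2b34 differed by -0.70 without control replicate 1 (adjusted p = 0.0672) and -0.76 without control replicate 2 (0.0550). Ugt2b1 differed by -0.44 without control replicate 2 (adjusted p = 0.116) and -0.46 without knockout replicate 1 (0.0825).

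Of the other UGT members, Ugt2b35 averaged 139 ± 2.31 in the controls, against 109.9 ± 10.1 in the knockouts (-0.30 ± 0.10, adjusted p = 0.0777 by limma). Ugt2b37, Ugt2b38, Ugt3a2 and the galactosyltransferase gene Ugt8a, which acts in myelin lipid synthesis, had both group means under 35.6, and Ugt3a1 lay next to it at 33.5 ± 3.30 and 37.2 ± 7.30. Genes of the Ugt1 locus, which encode the enzymes of bilirubin and phenol glucuronidation, share their last exons and have no probe set of their own here. The annotation assigns 3 probe sets to 8 of these genes at once. They read 4651 and 4356 in control against 2695 and 3271 in knockout (-0.60 ± 0.12), 5674 and 5377 against 3601 and 4439 (-0.46 ± 0.13), and 4022 and 3750.0 against 2225 and 2869.9 (-0.62 ± 0.14). All 3 were called lower in the limma fit over all probe sets, with adjusted p between 0.0150 and 0.0398, and which of the 8 genes carried the signal cannot be read from them. A probe set shared by a pair of Ugt2 genes was not called (-0.14 ± 0.12).

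Among 13 sulfotransferases 4 fell and 1 rose, and several lay near background. Sult1b1, which sulfates thyroid hormones and phenols, read 4364 and 4144 in control and 981 and 1992 in knockout (-1.59 ± 0.29, adjusted p = 0.00808 by limma). Its 2 knockout arrays differed from each other by more than its controls did, and with a trended and robust prior its call was lost (adjusted p = 0.120). Sult2b1, the cholesterol sulfotransferase, went from 749 and 728 to 251 and 371 (-1.23 ± 0.17, adjusted p = 0.00335). Sult1d1, which acts on catecholamines and other amines, went from 1669 and 1518 to 655 and 975 (-0.98 ± 0.18, adjusted p = 0.00888), and its call was lost without control replicate 1 (0.0512). Its second probe set gave -0.82 ± 0.24 and was not called (adjusted p = 0.0537 in the fit over all probe sets). Sult1c2 went from 118 and 121 to 85.7 and 91.5 (-0.37 ± 0.10, adjusted p = 0.0299), and its call was lost in 3 of the 4 fits with 1 array left out (adjusted p between 0.109 and 0.153, without either control or without knockout replicate 1). Sult1a1, the main phenol sulfotransferase, went the other way, from 134 and 102 to 187 and 192 (0.63 ± 0.13, adjusted p = 0.0139), with both knockout arrays above both controls. That rise was lost without knockout replicate 1 (adjusted p = 0.0517) and without control replicate 2 (0.0784). The other 8 sulfotransferases were not called and differed by -0.19 to 0.12. Of these, Sult1e1 and Sult3a1 lay under 35.6 in both groups, and Sult1c1, Sult2a2, Sult2a8 and Sult4a1 had group means between 32.2 and 61.9. Sult6b1 stood at 308.9 ± 0.474 and 297 ± 30.0 (-0.06 ± 0.11), and Sult5a1 at 151 ± 26.5 and 132 ± 1.14 (-0.17 ± 0.13), each with overlapping groups.

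Of the 13 carboxylesterases 7 fell and none rose. In the Ces2 group, whose intestinal enzymes cleave drug esters and acylglycerols, Ces2a read 4372 and 3682 in control and 387 and 788 in knockout (-2.82 ± 0.29, adjusted p = 0.00134 by limma). Ces2e went from 3969 and 3747 to 1184 and 1711 (-1.43 ± 0.17, adjusted p = 0.00211), Ces2g from 1023 and 949 to 477 and 459 (-1.05 ± 0.10, adjusted p = 0.00102), and Ces2b from 137 and 131 to 81.0 and 80.6 (-0.63 ± 0.09, adjusted p = 0.00435). The knockout arrays of Ces2g and Ces2b were nearly equal, while those of Ces2a and Ces2e differed. Ces2f was not called (0.13 ± 0.10).

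In the Ces1 group, which hydrolyses lipid and drug esters, 3 of 6 members fell. Ces1f read 785 and 457 in control and 79.6 and 72.3 in knockout (-2.74 ± 0.23, adjusted p = 0.000761 by limma). Ces1e went from 778 and 551 to 165 and 161 (-1.90 ± 0.16, adjusted p = 0.000810). Ces1d, also known as triacylglycerol hydrolase, read 835 and 287 in control and 47.3 and 91.1 in knockout (-2.62 ± 0.46, adjusted p = 0.00720). Its controls were the most uneven of the called members, and the difference was -1.88 without control replicate 1 and -3.37 without control replicate 2. The call of Ces1d was also lost with a trended and robust prior (adjusted p = 0.121), and while its second probe set fell by 2.45 ± 0.43, another gave -0.66 ± 0.25 (adjusted p = 0.109). Ces1h averaged 647 ± 49.9 and 794 ± 30.7, with both knockout arrays above both controls but no call (0.29 ± 0.10, adjusted p = 0.0899). Ces1c and Ces1g differed by -0.22 ± 0.11 and -0.23 ± 0.10, and in the single-gene groups Ces5a by -0.19 ± 0.10 (143 ± 10.3 and 122 ± 3.18) and Ces4a by 0.05 ± 0.10 (41.2 ± 0.0283 and 43.2 ± 2.74), none of them called. Carboxylesterase genes within a group are near-identical in parts, so their probe sets may share targets. The only probe set of Ces1f is of the _s_at type, which can bind several transcripts.

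Many members lie next to each other on the chromosomes, as local duplicates do, and falls and uncalled values stood side by side. Of 7 neighbouring Gstm genes, the 5 inner ones (Gstm7, Gstm6, Gstm3, Gstm2 and Gstm1, in that order) were called lower, while Gstm5 at one end and Gstm4 at the other were not. In the Ces1 group the 3 falls were adjacent (Ces1d, Ces1e and Ces1f), between Ces1c on one side and Ces1g and Ces1h on the other. The Ugt2 genes and the sulfotransferases Sult1b1, Sult1d1 and Sult1e1 form a run of 13 genes. In it 11 were measured and 7 called lower, with uncalled genes in between and at its end. Of the uncalled genes in this run, Ugt2b37, Ugt2b38 and Sult1e1 had both group means under 35.6, so a fall could not be seen in them. In the Ces2 run 4 of 6 measured genes were lower, and in the Gstt run only Gstt1 of 4. Neighbour order was taken from the RefSeq gene table and says nothing of where a probe set lies.

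**Figure D3:**
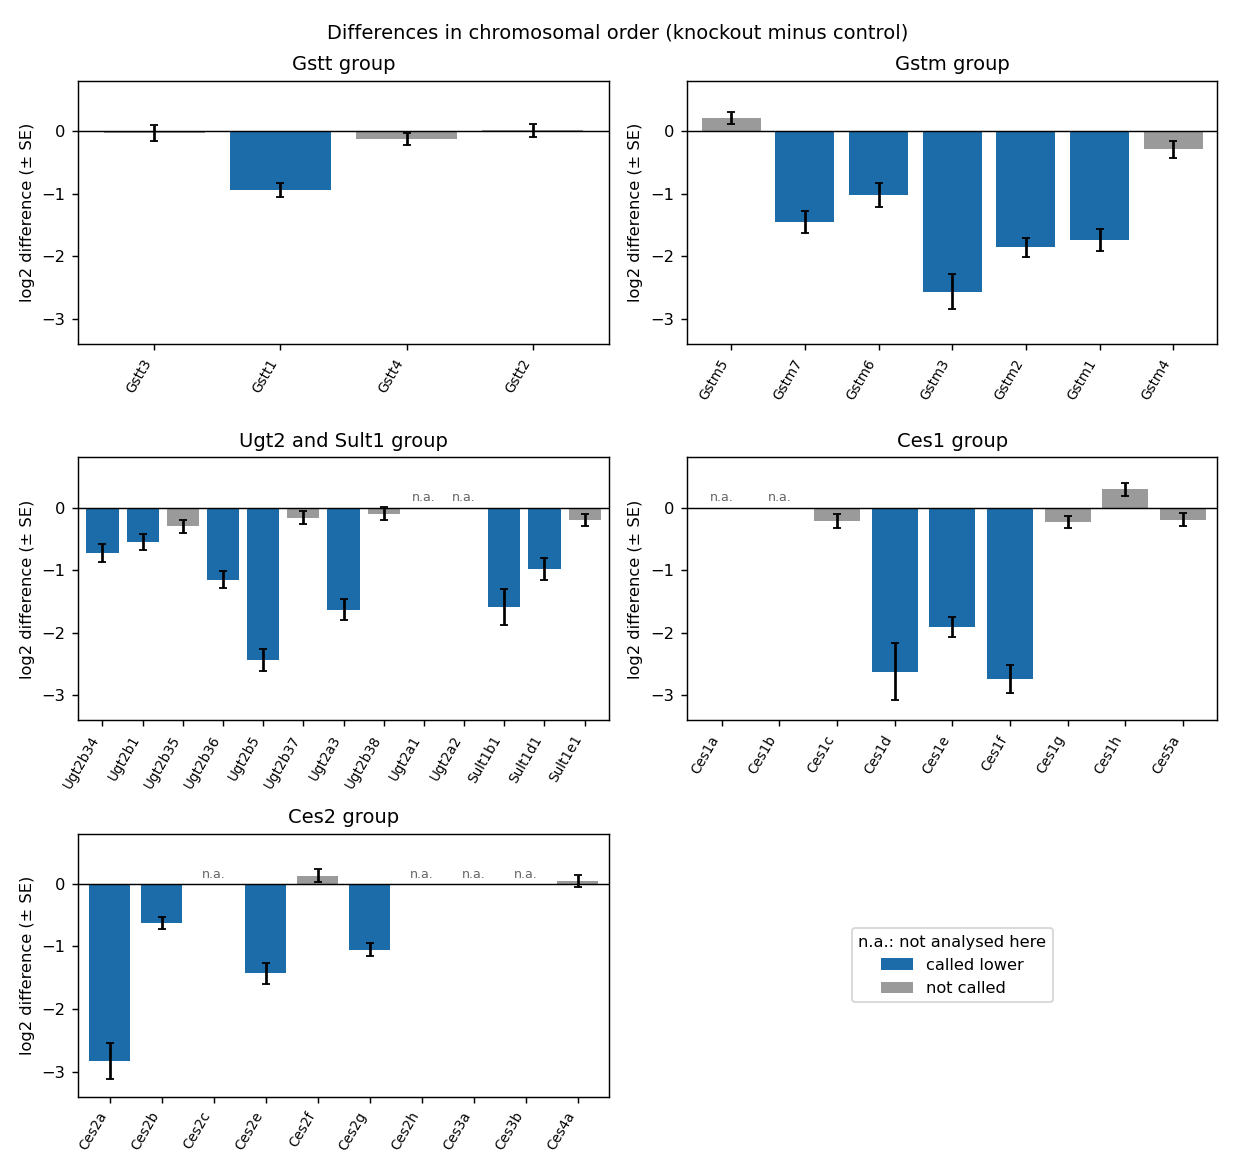
Log2 difference (vertical axis, knockout minus control, bars ± SE, n = 2 arrays per group) of members in 5 runs of neighbouring genes, in chromosomal order. Genes called lower are blue, uncalled ones grey, and genes not analysed here are marked n.a. The inner 5 of 7 Gstm genes are lower, from -1.03 to -2.56.

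Upstream sequence was available for 52 of the 60 members in a RefSeq promoter table (build GRCm38.p6). The 250 bases before the most upstream listed start of each gene were searched on both strands for 4 short motifs named after regulators of detoxification and enterocyte genes. Bases after the start were not searched, so motifs there were not counted. The core of the antioxidant response element bound by NRF2 (TGACNNNGC) was found in 3 of 52 members, Gsta3, Mgst1 and Gstm5, and in 10.1% of all 27025 genes in the table. A YY1 core (AANATGGC) was found in 0 of 52 members and in 3.91% of all genes, an HNF4 motif (CAAAGNNCA) in 2 members, Ces2e and Gsto2, and 5.46% of all genes, and an HNF1 motif (marked in the Sult1d1 window) in 2 members, Sult1d1 and Ces5a, and 0.411% of all genes. Thus the NRF2 core stood in the windows of Gsta3 and Mgst1, which fell, and in that of Gstm5, which was not called. The following windows are those of the 3 genes with the NRF2 core, of Gstm3 as the neighbour of Gstm5 with the largest fall in the run, and of Sult1d1 with its HNF1 motif. They run 5′ to 3′ on the strand of the gene and end at the base before the start. Capitals mark motif matches, which are descriptions of letters and not shown to be sites.
Gsta3, chr1:21240335-21240584, plus strand: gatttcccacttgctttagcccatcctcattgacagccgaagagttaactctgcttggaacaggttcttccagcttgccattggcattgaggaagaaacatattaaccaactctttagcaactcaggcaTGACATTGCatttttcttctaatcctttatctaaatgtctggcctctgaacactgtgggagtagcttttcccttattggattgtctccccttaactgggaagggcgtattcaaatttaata
Mgst1, chr6:138140277-138140526, plus strand: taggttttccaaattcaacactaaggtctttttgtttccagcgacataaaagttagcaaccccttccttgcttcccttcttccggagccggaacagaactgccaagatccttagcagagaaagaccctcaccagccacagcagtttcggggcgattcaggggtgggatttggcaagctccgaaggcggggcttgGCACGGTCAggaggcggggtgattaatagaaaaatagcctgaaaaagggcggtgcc
Gstm5, chr3:107895604-107895853, plus strand: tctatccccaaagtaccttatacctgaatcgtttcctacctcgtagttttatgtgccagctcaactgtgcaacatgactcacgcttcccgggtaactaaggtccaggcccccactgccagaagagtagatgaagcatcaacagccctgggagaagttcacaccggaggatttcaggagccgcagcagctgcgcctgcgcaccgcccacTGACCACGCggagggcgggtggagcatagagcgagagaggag
Gstm3, chr3:107969175-107969424, minus strand: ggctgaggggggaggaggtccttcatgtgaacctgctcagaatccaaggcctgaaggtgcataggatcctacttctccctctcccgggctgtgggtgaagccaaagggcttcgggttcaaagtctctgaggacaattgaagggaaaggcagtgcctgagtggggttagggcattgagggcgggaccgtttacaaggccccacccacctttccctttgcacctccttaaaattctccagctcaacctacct
Sult1d1, chr5:87569007-87569256, minus strand: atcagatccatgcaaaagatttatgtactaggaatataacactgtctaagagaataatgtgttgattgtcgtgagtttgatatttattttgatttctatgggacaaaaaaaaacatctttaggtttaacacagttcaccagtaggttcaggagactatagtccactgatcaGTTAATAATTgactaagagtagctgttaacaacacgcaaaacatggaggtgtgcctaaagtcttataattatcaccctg
In Gsta3 the match spans 121 to 113 bases before the start, in Gstm5 42 to 34 and in Mgst1, on the opposite strand, 56 to 48. The HNF1 motif of Sult1d1 spans 79 to 70 bases before the start.

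The 2 knockout arrays differed in degree. Among the 28 members called lower, the median difference from the control mean was -1.54 in knockout replicate 1 and -1.04 in knockout replicate 2. Replicate 1 was the lower knockout array in 22 of these 28 genes, in 42 of all 60 members and in 53.9% of all genes. Over all 60 members the medians were -0.38 and -0.25 in knockout replicates 1 and 2. The 28 were chosen by their call on these same arrays, and the share among all genes called lower was not counted. Among the 28, Sult1b1, with 981 against 1992, and Gstm3, with 429 against 842, were lower in replicate 1. The order was turned in Ces1e, Ces1f, Ces2b, Ces2g, Gsta3 and Mgst1, where knockout replicate 1 read above knockout replicate 2. Markers of the mature enterocyte showed the same difference between arrays without exception: of 28 measured, each was lower in knockout replicate 1, with medians of -1.66 and -0.84 in replicates 1 and 2.

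The controls were uneven as well. Control replicate 1 was above control replicate 2 in 26 of the 28 lower members and in 43 of all 60 members. It was so in 44.4% of all genes and in 18 of 28 enterocyte markers. Ces1d (835 and 287) and Gsta3 (893 and 422) had the widest control gaps among the examples above, while Sult1c2 and Ugt2b1 had the higher value in control replicate 2. The median gap between the controls, replicate 1 minus replicate 2, was 0.24 on the log2 scale over the 28 members and 0.08 over all 60. It was 0.03 over the enterocyte markers and -0.02 over all genes. The labels give nothing that separates the control mice.

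**Figure D4:**
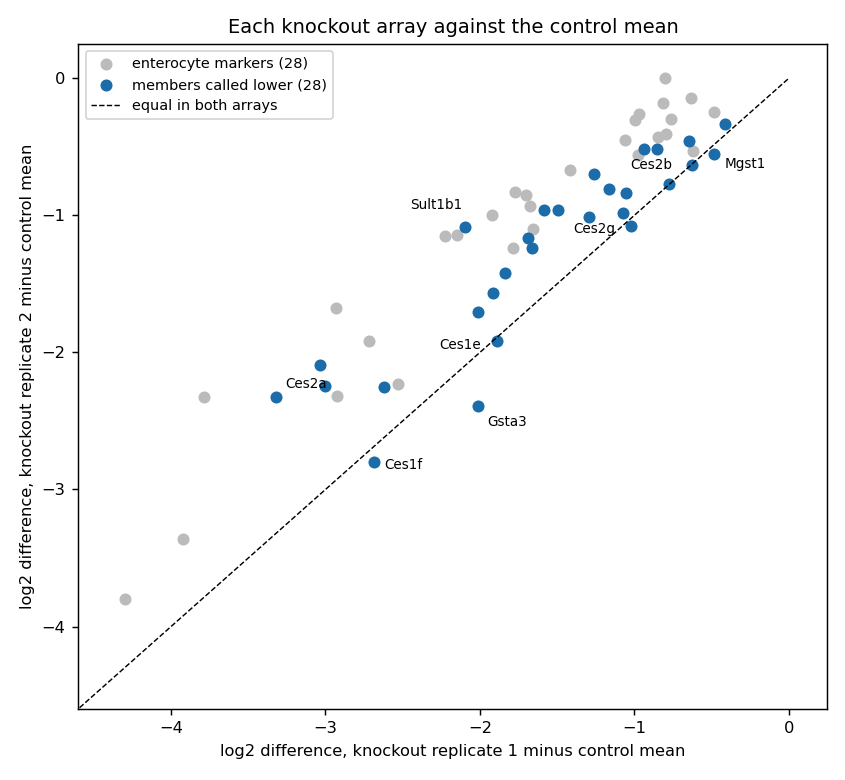
Log2 difference of each knockout array from the control mean (horizontal axis replicate 1, vertical axis replicate 2, log2(intensity + 16)) for the 28 members called lower (blue) and 28 enterocyte markers (grey). Points above the dashed line fell more in replicate 1, which holds for all grey points and for 22 of the blue ones.

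Levels of cell type markers moved in the same comparison, in which 10.9% of all genes were called lower and 13.4% higher. Of the 28 measured enterocyte markers 22 were called lower and none higher (median -1.29). Their summed intensity was 158145 and 156002 in the controls, and 74108 and 107630 in the knockouts, and no marker lay at or under background. This sum and those below are weighted towards bright probe sets and do not measure the number of cells. Of 11 markers of dividing cells 9 were called higher (median 0.77), with sums of 16720 and 16849.7 in control and 25034 and 24164 in knockout. Of the goblet markers 3 of 10 were lower, of the tuft cell markers 5 of 9 and of the stem cell markers 1 of 10 (Olfm4), and none was higher. For Paneth cells 1 of 7 was higher (Mmp7), and for enteroendocrine cells 2 of 10 were lower and 1 higher. For cells from outside the epithelium, 2 of 13 immune markers were lower and 1 higher, 2 of 14 markers of mesenchyme and endothelium were lower, and 1 of 5 of liver and pancreas was lower. Their summed levels were 4096 and 4038 in control against 3812 and 4135 in knockout for immune cells, and 2087 and 2247 against 2015 and 1856 for mesenchyme and endothelium. As a sign of RNA quality, the log2 difference between the 3' and 5' control probe sets of Gapdh was 1.44 and 1.40 in the controls and 1.71 and 1.65 in the knockouts. For Actb it was 0.28 and 0.24 against 0.33 and 0.29. The part of cell composition and of RNA quality in the falls of the conjugation enzymes was not tested.

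Genes for the supply, transport and use of the donor molecules held falls and rises. Over all genes 10.9% were called lower and 13.4% higher. Of 8 such genes for UDP-glucuronic acid 2 fell and 2 rose (median -0.15). Ugdh, which makes UDP-glucuronic acid, fell from 2853 ± 140.1 to 2103 ± 276 (-0.44 ± 0.12), and Ugp2, which makes its precursor UDP-glucose, by 0.42 ± 0.11. The rises were Slc35b4 (0.67 ± 0.10), a Golgi nucleotide sugar transporter, and Uxs1 (0.57 ± 0.12), which turns UDP-glucuronic acid into UDP-xylose. Calls of Ugdh, Ugp2 and Uxs1 were lost without control replicate 1, control replicate 2 or knockout replicate 1, at adjusted p of 0.0534 to 0.176, and those of Ugdh and Ugp2 also with a pseudocount of 1 (0.0573 and 0.0518). When genes were represented by their dimmest probe set, Ugp2 (0.218), Uxs1 (0.532) and Slc35b4 (0.151) were not called. Of 9 genes for the sulfate donor 4 fell and 1 rose (median -0.03). The sulfate transporter Slc26a2 fell from 5047 ± 226 to 2717 ± 490.4 (-0.90 ± 0.14), the PAPS synthases Papss1 and Papss2 by 0.60 ± 0.13 and 0.65 ± 0.16, and Bpnt1, which removes the spent donor, by 0.42 ± 0.10. The calls of Papss1, Papss2 and Bpnt1 were lost in those same fits, at adjusted p of 0.0512 to 0.123. Papss2 was also not called with its dimmest probe set (adjusted p = 0.979) or a trended and robust prior (0.0526). Suox, sulfite oxidase, was called higher (0.41 ± 0.12, adjusted p = 0.0467 by limma). That call was lost with a pseudocount of 1 (0.0682), quantile normalization (0.0705), median scaling (0.0568) and the dimmest probe set (0.0584), and without control replicate 2, knockout replicate 1 or knockout replicate 2 (0.116 to 0.265).

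Of 20 genes for glutathione supply and breakdown 8 fell and 1 rose (median -0.38). The shares over all genes, for this and the next 3 lists, were 10.9% lower and 13.4% higher. The falls with the smallest p concerned the processing of finished conjugates: Nat8 (-1.82 ± 0.20), which acetylates cysteine conjugates to mercapturic acids, Acy3 (-1.49 ± 0.14) and Acy1 (-0.95 ± 0.12), which deacetylate them, and the dipeptidase Dpep1 (-1.30 ± 0.17). The rise was Chac1, a glutathione-degrading enzyme (0.85 ± 0.12). Of 11 relatives outside the families, among them glutathione peroxidases and eicosanoid enzymes, 3 fell and 1 rose. Alox5ap fell by 0.82 ± 0.10, the peroxidases Gpx3 and Gpx2 by 0.54 ± 0.12 and 0.48 ± 0.14, and Gstcd, a gene with a GST-like domain, rose by 0.72 ± 0.15. The call of Gstcd was lost without control replicate 1 (adjusted p = 0.0773) and control replicate 2 (0.0634), that of Gpx3 without control replicate 2 (0.105) and knockout replicate 1 (0.0701), and that of Gpx2 in 3 of the 4 such fits (0.0629 to 0.252). Among 14 other conjugation genes, 3 fell and 1 rose: As3mt, an arsenic methyltransferase, fell from 377 ± 39.0 to 81.3 ± 4.94 (-2.01 ± 0.11), and Acsm5 by 1.31 ± 0.13, while Hnmt was called lower at levels under background (27.9 ± 4.93 and 13.4 ± 1.55) and Acsm3 rose by 0.73 ± 0.16. The rise of Acsm3 was lost without control replicate 1 (adjusted p = 0.0693) and without knockout replicate 1 (0.0776). Esterases outside the Ces family fell in 4 of 9 cases: Cmbl by 1.23 ± 0.17, Lipe by 1.11 ± 0.19, Bche by 1.10 ± 0.15 and the microsomal esterase Aadac by 0.97 ± 0.13, though Lipe was not called with its dimmest probe set (adjusted p = 0.614).

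The steps before and after conjugation also held many falls, against 10.9% of all genes called lower and 13.4% higher. Of 29 phase I genes 22 fell and 1 rose (median -1.18), among them Cyp2c55 from 1127 ± 16.3 to 115 ± 34.3 (-3.15 ± 0.17). The steroid and drug oxidase gene Cyp3a25 differed by -4.07 ± 0.19 and Maob, a monoamine oxidase, by -3.66 ± 0.22, while the rise was the epoxide hydrolase Ephx1 (1.98 ± 0.12). Of 19 transporters of drugs, bile acids and conjugates 10 fell and 1 rose (median -0.52). Abcg2, which exports sulfate and glucuronide conjugates, fell from 1237 ± 67.0 to 550.7 ± 67.3 (-1.15 ± 0.12), the organic solute transporter Slc51a by 1.84 ± 0.16 and the carnitine and organic cation carrier Slc22a4 by 1.56 ± 0.22. Abcc1, an exporter of glutathione conjugates, rose from 220.0 ± 13.7 to 468 ± 46.1 (1.03 ± 0.11).

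Known regulators of detoxification and enterocyte genes changed in part, where 10.9% of all genes were called lower and 13.4% higher. Nfe2l2, which encodes NRF2, read 2551 and 2361 in the control arrays, and 1904 and 2114 in the knockout arrays (-0.29 ± 0.11, adjusted p = 0.0951 by limma). Of 17 NRF2 target genes outside the families 4 fell and 1 rose (median -0.21). The falls were Me1 (-0.72 ± 0.12), Srxn1 (-0.84 ± 0.15), Fth1 (-0.37 ± 0.09) and Osgin1 (-0.88 ± 0.23), and the rise was Abcc1. The call of Fth1 was lost with any array left out, at adjusted p of 0.0606 to 0.142. That of Osgin1 was lost without control replicate 1 (0.0918) or control replicate 2 (0.125), with a pseudocount of 1 (0.0501) and with a trended and robust prior (0.0514). Nr1i2, the xenobiotic receptor PXR, was at 1360.2 ± 88.3 and 1009 ± 202 (-0.44 ± 0.15, adjusted p = 0.0727), and Ahr, the aryl hydrocarbon receptor, at 175 ± 20.1 and 142 ± 14.4 (-0.27 ± 0.12, adjusted p = 0.163). Both knockout arrays of Nfe2l2, Nr1i2 and Ahr lay below both controls, and each passed the threshold in some alternatives: Nfe2l2 with a trended and robust prior (0.0344), Nr1i2 without knockout replicate 2 (0.0142) and Ahr with the mean of all probe sets (0.0484). Of the 26 regulators measured 11 fell and none rose (median -0.30), including the PGC-1alpha gene Ppargc1a (-1.79 ± 0.19), Vdr (-1.23 ± 0.14), Gata5 (-1.01 ± 0.11) and Arnt, the partner of AHR (-0.73 ± 0.10). Hnf4a, a main activator of enterocyte genes, was at 7367 ± 4.11 and 6720 ± 189 and was not called (-0.13 ± 0.09, adjusted p = 0.378). Its relative Hnf4g was called lower (-0.79 ± 0.18, adjusted p = 0.0181 by limma). So were another xenobiotic receptor gene, Nr1i3 (-0.86 ± 0.19, adjusted p = 0.0189), and Rxra (-0.58 ± 0.11, adjusted p = 0.00876).

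**Figure D5:**
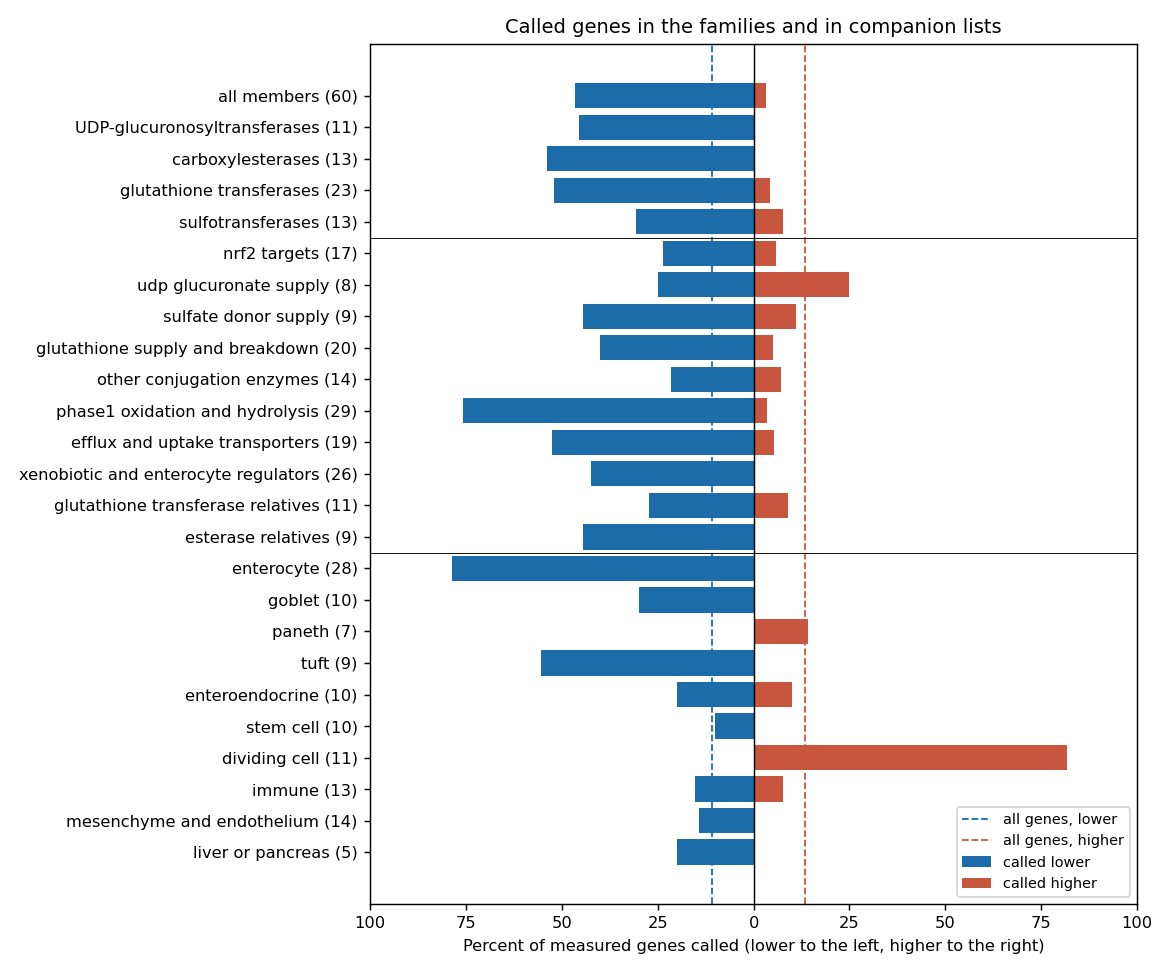
Share of measured genes called lower (bars to the left) and higher (bars to the right), in percent, for all members, the 4 families, 10 companion lists and 10 cell type marker lists, with the number of measured genes in brackets. Dashed lines mark 10.9% and 13.4%, the shares called lower and higher among all 18193 genes.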

How the data were processed

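The deposited values were taken to be array intensities on a linear scale. How the authors corrected background, summarised probes and scaled arrays is not given in the sources used here. Array medians were 138.7 to 142.9, and no scaling was added.

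Gene names came from the platform annotation in GEO, and symbols were brought up to date by Entrez ID with RefSeq. Of 45101 probe sets, 34945 had 1 gene, 932 several, 9160 none listed and 64 were array controls. The 6 probe sets shared by several genes of these families were not assigned to a gene. limma 3.58.1 in R 4.3.3 (lmFit, eBayes, no block, knockout against control) was run over all 18193 genes on log2(intensity + 16), which understates changes of dim genes. It was also run on data simulated with the spread of its own fit. That checks the code and not whether the spread suits these arrays. A second fit took every probe set that was no array control.

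The members were taken by symbol alone, but the families, gene lists and motifs were chosen with earlier results of these data known. Full values were given for members called with at least a 2-fold change, for called members of subfamilies with 3 or fewer calls and for the brightest probe set of each subfamily. Of each companion list up to 4 called genes with the smallest p were named, and Nfe2l2, Nr1i2, Ahr, Hnf4a and Yy1 always. Suox, Osgin1, Chac1, Olfm4, Mmp7, Hnf4g, Nr1i3, Rxra and the other uncalled members with values were chosen after their values were seen. Alternatives were the pseudocount, the scaling, a filter on dim genes, the prior, the choice of probe set, the replicate number as a block and each array left out. Precision is limited by having 2 arrays a group.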

Additional observations from a re-analysis of the deposited data

How the results depend on the processing

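The count of members called lower, 28, ranged from 23 to 29 under the alternatives that kept all arrays and from 22 to 28 with 1 array left out. The count called higher was 2 under each of the former, though with a pseudocount of 1 Gstz1 was lost (adjusted p = 0.0527) and Gsto2, which lies under background, was gained (0.0307), and it fell to between 0 and 1 with 1 array left out. Of the 30 called members 18 were called under every alternative that held them, and 21 with each array left out. Of the 39 genes of the companion lists that the text names by its rule and that were called, 25 were called under every alternative. When each gene was represented by its dimmest probe set, direction turned for Gstm7 (0.112) and Mgst1 (0.0520) among the members, and for the markers Des (0.0933) and Pdgfra (0.0461). The labels give both groups the same replicate numbers without saying what they share, and the deviations of same-numbered arrays correlated at 0.099 over 18193 genes, so the numbers were not taken to pair the arrays. With the replicate number as a block 29 members were lower and 2 higher, Ugt8a being the added fall (adjusted p = 0.0423), and no other member's call changed. The cause of these changes was not tested. Levels under 35.6 lie within the background measure.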
